A study of Mus musculus with 36 samples.

Results

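The 10 genes described here encode Toll-like receptors and the proteins that act directly beside them. They are the receptors Tlr1, Tlr2, Tlr3, Tlr4 and Tlr6, the ligand-binding co-factors Cd14 and Lbp, the adaptors Myd88 and Ticam1, and the inhibitory kinase Irak3. They were chosen by name, with earlier results of these data known. The count table held 43472 genes, and all 10 were counted in at least 1 library. Their mRNA was measured in wild-type mouse enteric glial cells (EGCs), the glia of the gut's own nervous system. The EGCs were grown as neurospheres from the intestines of C57BL/6J embryos, then dissociated and differentiated on plates in serum-containing medium. Cells were left unstimulated, or received conditioned medium from digested healthy colon (H-CM), or conditioned medium from digested orthotopic colon tumors made with the MC38 colorectal cancer line (TME-CM). Stimulation lasted 6, 12 or 24 h, and each of the 9 groups held 4 libraries, 36 in all. The comparisons address how the tumor medium changes these glia relative to healthy-colon medium and to no medium. Both media came from mixed cell suspensions, so what each contained is not known from the labels. The methods name C57BL/6J, CCR2+/+ and CCR2-/- donors of tumor and colon tissue without tying a donor to a library. Neither source says whether the 4 libraries of a group were separate cultures, so p-values measure only the spread between these libraries.

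Toll-like receptors recognise microbial molecules and some molecules released from damaged tissue. TLR2 works in pairs with TLR1 or TLR6 at the cell surface and binds bacterial lipoproteins, TLR4 responds to lipopolysaccharide, and TLR3 binds double-stranded RNA inside endosomes. LBP, a secreted acute-phase protein, extracts lipopolysaccharide from bacteria and passes it to CD14, which delivers it to TLR4 and also presents ligands to TLR2. MyD88 carries the signal of nearly all of these receptors, and of the IL-1 receptor, to IRAK kinases and NF-kB. TRIF, the product of Ticam1, serves TLR3 and TLR4. IRAK-M, the product of Irak3, restrains signalling downstream of MyD88, and several of these genes are themselves NF-kB targets in other cells.

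Libraries were made with a kit that reads the 3′ end of each mRNA, so that a count does not grow with transcript length. Levels are given as CPM, counts scaled to the library's total and composition, on 1 scale over the 36 libraries. The libraries of 12 and 24 h held 1608018 to 7552509 counts each. Those of 6 h ranged from 13518 to 5244763, and the smallest was H-CM replicate 4, in which 1 count equals 36.8 CPM. Unstimulated replicate 3 of that time held 256453. TME-CM replicates 1 and 3 at 6 h detected 10120 and 10433 genes from 4158689 and 2919357 counts, fewer than the 12150 genes that H-CM replicate 1 gave from 1006705 counts. Tlr3 had 0 counts in both of these TME-CM libraries, and Ticam1 had 192 and 154. The 6 h levels below therefore carry wide errors. Differences were tested with edgeR over all genes at each time, and a gene is called changed at an adjusted p under 0.05.

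LBP and CD14 hand lipopolysaccharide to the receptor, and Lbp differed more between TME-CM and H-CM than any other of the 10 genes tested. Lbp (chr2:158306493-158332852, plus strand, GRCm38) was near the detection limit in unstimulated EGCs, and in TME-CM at 24 h it had the highest mean of the 10 genes. At 24 h its level was 43.7, 42.6, 54.8 and 42.6 CPM in the 4 TME-CM libraries. H-CM libraries gave 6.18, 2.92, 2.95 and 2.48 CPM, and unstimulated libraries 0.752, 0.801, 1.55 and 0.741 CPM. The 3 groups were fully separated, with unstimulated lowest and TME-CM highest. Lbp was 12.4-fold higher in TME-CM than in H-CM at 24 h (log2 fold change 3.63, SE 0.27, edgeR adjusted p = 2.02e-08) and 45.8-fold higher than in unstimulated cells (5.52, SE 0.31, edgeR adjusted p = 7.21e-11). It was also 3.69-fold higher in H-CM than in unstimulated cells (1.88, SE 0.36, edgeR adjusted p = 0.00491). That last call is lost when the unstimulated and H-CM libraries are fitted without the TME-CM libraries (edgeR adjusted p = 0.0618).

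The difference in Lbp was already present at 12 h. TME-CM libraries held 32.9, 48.0, 42.0 and 29.3 CPM, against 6.46, 2.12, 0 and 2.49 in H-CM and 0.509, 0.410, 0.265 and 2.33 in unstimulated cells. Again every TME-CM library lay far above all others, whereas H-CM and unstimulated libraries overlapped. The log2 fold change was 3.82 against H-CM (SE 0.62, edgeR adjusted p = 0.00182) and 5.06 against unstimulated cells (SE 0.70, edgeR adjusted p = 0.000111). Between H-CM and unstimulated cells it was 1.24 (95% interval -0.30 to 2.78) and did not pass. At 6 h, Lbp had at most 22 counts in any library, with 0, 1.91, 2.88 and 4.87 CPM in TME-CM, and it did not pass the filter on low counts.

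Cd14 (chr18:36725067-36726798, minus strand) encodes the co-receptor that takes ligand from LBP. It was scarcer than Lbp and graded between the groups. At 24 h it stood at 8.22, 3.84, 6.997 and 5.201 CPM in TME-CM. It stood at 5.39, 3.89, 1.31 and 2.48 CPM in H-CM, and at 0.251, 1.44, 1.69 and 0.247 CPM in unstimulated cells. TME-CM lay wholly above unstimulated cells but overlapped H-CM. Cd14 was 6.45-fold higher in TME-CM than in unstimulated cells at 24 h (log2 fold change 2.69, SE 0.57, edgeR adjusted p = 0.00245). Against H-CM the difference was 0.91 (95% interval -0.16 to 1.98, edgeR adjusted p = 0.416). At 12 h, Cd14 averaged 9.45 ± 3.23 CPM (SD, n = 4) in TME-CM, 4.34 ± 2.71 in H-CM and 2.04 ± 1.37 in unstimulated cells. Its difference from unstimulated cells missed the threshold there (log2 fold change 2.23, edgeR adjusted p = 0.0557), although the libraries of the groups did not overlap.

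Tlr2 (chr3:83836272-83841767, minus strand) was the receptor with the clearest response to medium. Promoters from the RefSeq promoter table (GRCm38.p6) were searched for 7 of the 10 genes, and those of Cd14, Lbp and Tlr4 were not searched. The Tlr2 promoter is shown because it holds matches to the NF-kB consensus, in capitals. Among the 7, the Tlr3 promoter also holds 1 such match, which begins 211 bases before its start site. The sequence shown spans 250 bases before to 50 after the start site.

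Tlr2 promoter, chr3:83841559-83841858, minus strand: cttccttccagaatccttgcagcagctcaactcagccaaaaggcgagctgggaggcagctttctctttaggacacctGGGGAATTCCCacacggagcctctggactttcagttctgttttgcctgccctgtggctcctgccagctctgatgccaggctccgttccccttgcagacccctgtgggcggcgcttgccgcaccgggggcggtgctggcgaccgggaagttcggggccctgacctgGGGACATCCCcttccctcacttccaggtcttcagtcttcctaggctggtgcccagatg

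Overlapping matches began 173 and 172 bases before the start site and another began 8 bases before it. The same consensus, searched on both strands, occurs in 4.505% of 32851 promoters of this length. A match describes the letters only, and no binding was measured here.

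At 12 h, Tlr2 had 0 counts in all 4 unstimulated libraries, which allows a level of up to 0.194 CPM for the group. H-CM libraries held 6.72, 2.82, 10.9 and 1.90 CPM and TME-CM libraries 22.7, 16.4, 21.1 and 19.5 CPM, so the 3 groups did not overlap. Relative to the 3-count limit over the unstimulated group, Tlr2 was at least 102.87-fold higher in TME-CM (edgeR adjusted p = 1.22e-05) and at least 28.909-fold higher in H-CM (edgeR adjusted p = 0.0025). These bounds cover counting error only. In a fit of the H-CM and unstimulated libraries alone, Tlr2 did not pass the filter on low counts. The adjusted p for H-CM therefore depends on the TME-CM libraries being in the fit. TME-CM against H-CM at 12 h gave a log2 fold change of 1.85 (95% interval 0.77 to 2.93) that did not pass in the main test (edgeR adjusted p = 0.0855). It passed with DESeq2 (adjusted p = 0.0209), with no filter on low counts (edgeR adjusted p = 0.0163), and without H-CM replicate 3, the library with the highest Tlr2 in its group (2.43, edgeR adjusted p = 0.0108).

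At 24 h, the level in TME-CM was 10.1, 12.3, 9.82 and 14.8 CPM. It was 4.99, 1.62, 0.874 and 0.495 CPM in H-CM and 1.25, 1.12, 1.69 and 0 CPM in unstimulated cells. All TME-CM libraries were above all others, and H-CM overlapped unstimulated cells. Tlr2 was 5.62-fold higher in TME-CM than in H-CM (log2 fold change 2.49, SE 0.58, edgeR adjusted p = 0.0117) and 11.7-fold higher than in unstimulated cells (3.55, SE 0.62, edgeR adjusted p = 0.000459). The call against H-CM was lost without H-CM replicate 2 or 3, with an edgeR adjusted p of 0.0596 and 0.0603. H-CM against unstimulated cells was 1.06 (95% interval -0.35 to 2.48) at this time.

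At 6 h, TME-CM libraries held 44.3, 9.55, 5.34 and 54.4 CPM of Tlr2, the highest and lowest of which lay about an order of magnitude apart. H-CM libraries held 13.1, 1.06, 1.11 and 0 CPM and unstimulated libraries 1.08, 0.783, 5.25 and 4.69 CPM. Every TME-CM library lay above every unstimulated library, but only just. The lowest TME-CM library held 5.34 CPM and unstimulated replicate 3 held 5.25 CPM, which is 1 count in a shallow library. The spread within TME-CM was wide, and neither difference passed (log2 fold change 3.33, edgeR adjusted p = 0.545 against unstimulated cells, and 2.59, edgeR adjusted p = 0.823 against H-CM).

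The TLR2 partners were almost absent. Tlr1 (chr5:64924679-64933563) was counted in 2 of 36 libraries, once in H-CM replicate 1 and 5 times in TME-CM replicate 3, both at 24 h. Tlr6 (chr5:64952031-64960097) was counted in 9 libraries, with 24 counts in all and at most 6 in one. The 2 genes are neighbours on the minus strand and encode similar proteins. None of the 452 windows of 50 bases in the last 500 exonic bases of Tlr1 recurred in another gene, and 2 of 848 windows of Tlr6 did, so reads lost to shared sequence are few by this measure. Neither passed the filter at any time, and no test was made.

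Tlr4 (chr4:66827584-66930284, plus strand), the lipopolysaccharide receptor, was present in every group and did not separate them. At 24 h it stood at 10.1, 6.90, 10.2 and 7.89 CPM in TME-CM. It stood at 10.97, 11.5, 10.3 and 6.93 CPM in H-CM and at 10.8, 5.29, 6.49 and 7.79 CPM in unstimulated cells. The ranges overlapped throughout. TME-CM against H-CM gave a log2 fold change of -0.19 (95% interval -0.75 to 0.37) at 24 h and -0.16 (95% interval -1.04 to 0.71) at 12 h, and no comparison of Tlr4 passed at any time. In the same libraries, its ligand carrier Lbp differed by more than 3 log2 units.

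Tlr3 (chr8:45395665-45411080, minus strand), the endosomal receptor, was low without medium. At 12 h it stood at 0.509, 4.51, 2.91 and 1.64 CPM in unstimulated cells. With H-CM it stood at 12.1, 5.99, 6.16 and 3.66 CPM, and with TME-CM at 8.98, 6.00, 10.1 and 10.3 CPM. TME-CM lay wholly above unstimulated cells and overlapped H-CM. The difference from unstimulated cells missed the threshold (log2 fold change 1.87, SE 0.58, edgeR adjusted p = 0.0773), and DESeq2 put it below (adjusted p = 0.0144). TME-CM and H-CM differed by 0.36 (95% interval -0.74 to 1.47) at 12 h and 0.07 (95% interval -0.62 to 0.77) at 24 h.

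The plot of levels by library shows all 8 genes that passed the filter at 12 and 24 h, with the wide scatter at 6 h on the left of each panel.

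**Figure D1:**
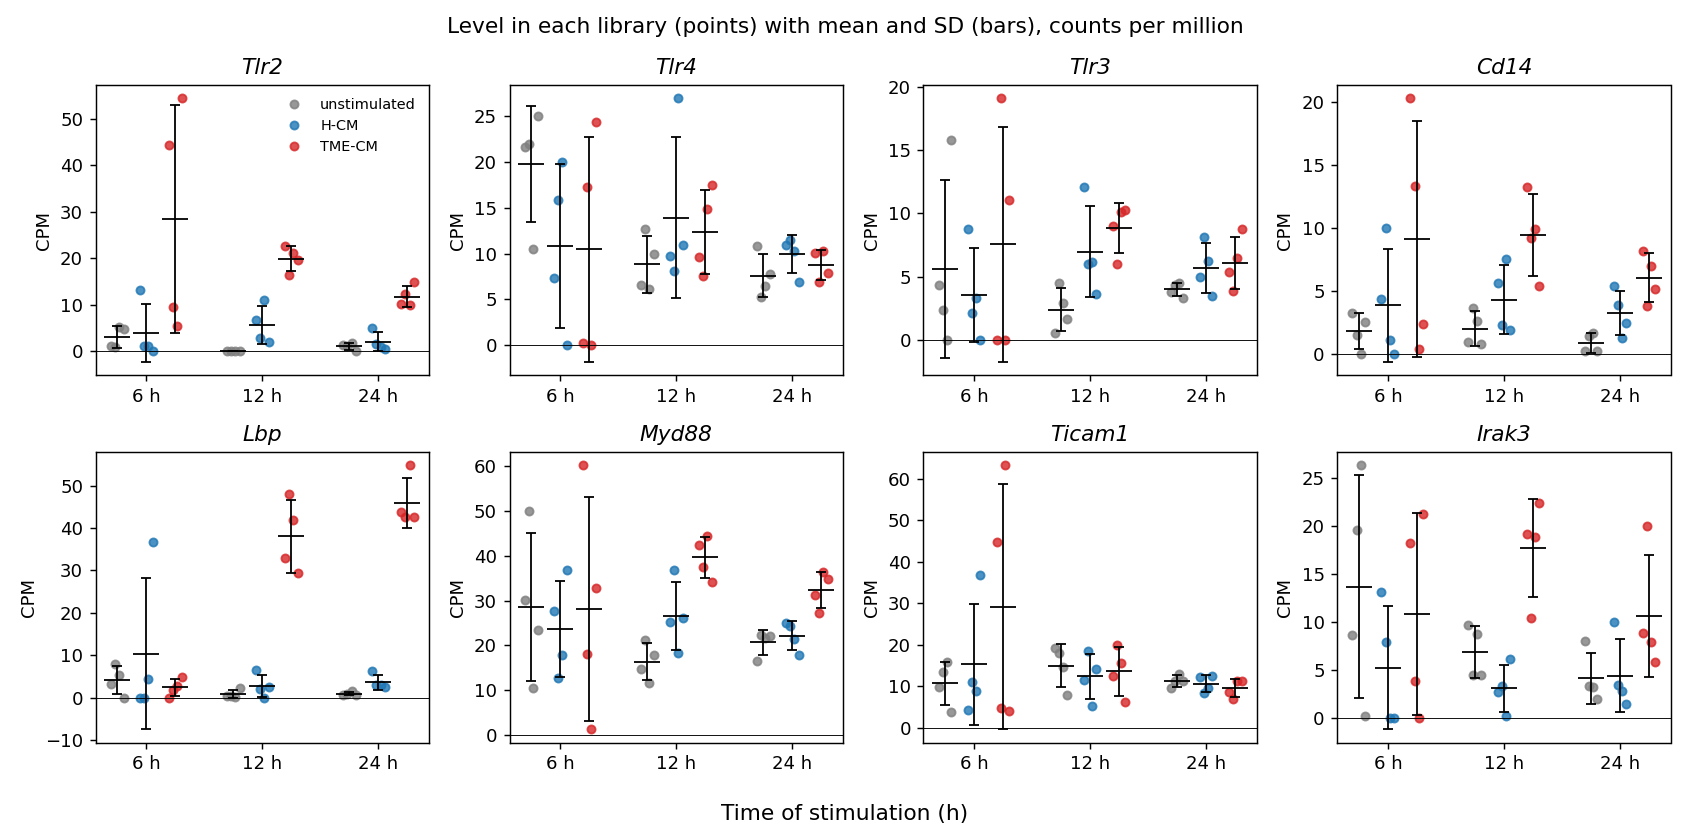
Level of 8 genes in each library, in CPM on a linear axis, against the time of stimulation in hours. Points are libraries (grey unstimulated, blue H-CM, red TME-CM) and bars give the group mean and SD of 4 libraries. At 24 h the 4 TME-CM libraries sit between 42.6 and 54.8 CPM for Lbp and between 9.82 and 14.8 CPM for Tlr2, above all other libraries of that time, while Tlr4 and Ticam1 overlap between all groups.

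Myd88 (chr9:119335934-119341411, minus strand), the shared adaptor, was the most abundant of the 10 genes without medium and showed small differences. At 24 h it stood at 31.2, 27.2, 36.3 and 34.7 CPM in TME-CM. It stood at 24.9, 24.3, 21.4 and 17.8 CPM in H-CM and at 16.6, 22.4, 21.7 and 22.1 CPM in unstimulated cells. TME-CM lay above both other groups, which overlapped each other. Myd88 was 1.56-fold higher in TME-CM than in unstimulated cells (log2 fold change 0.64, SE 0.17, edgeR adjusted p = 0.0163), a call lost without TME-CM replicate 3 or 4 (edgeR adjusted p = 0.0674 and 0.0506). Against H-CM the difference of 0.54 (95% interval 0.18 to 0.90) missed the threshold (edgeR adjusted p = 0.0771), and DESeq2 called it (adjusted p = 0.0329).

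At 12 h, Myd88 averaged 39.7 ± 4.65 CPM (SD, n = 4) in TME-CM, 26.6 ± 7.67 in H-CM and 16.4 ± 4.15 in unstimulated cells. It was 2.41-fold higher in TME-CM than in unstimulated cells (log2 fold change 1.27, SE 0.27, edgeR adjusted p = 0.00463). TME-CM against H-CM was 0.58 (95% interval 0.05 to 1.11, edgeR adjusted p = 0.403). Its promoter is shown for the IRF motif in capitals, the element bound by interferon regulatory factors, which begins 40 bases before the start site. A Tlr6 promoter also holds matches to the IRF motif, which begin 116 and 110 bases before its start site.

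Myd88 promoter, chr9:119339969-119340268, minus strand: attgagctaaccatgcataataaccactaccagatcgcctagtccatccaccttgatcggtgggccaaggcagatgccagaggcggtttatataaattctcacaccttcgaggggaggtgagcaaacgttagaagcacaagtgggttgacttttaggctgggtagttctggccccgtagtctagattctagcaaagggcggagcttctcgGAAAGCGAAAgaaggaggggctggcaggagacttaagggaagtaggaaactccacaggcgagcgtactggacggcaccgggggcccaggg

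The motif, on either strand, is held by 3.443% of the 32851 promoters. It overlaps a match to TTCNNNGAA, the STAT motif, which is held by 8.298%. No match to the NF-kB consensus lies in this window.

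Ticam1 (chr17:56269319-56276786, minus strand), the adaptor of TLR3 and TLR4, did not separate the groups. At 24 h its mean was 9.53 ± 2.14 CPM (SD, n = 4) in TME-CM, 10.6 ± 2.02 in H-CM and 11.3 ± 1.41 in unstimulated cells. At 12 h the means were 13.6 ± 5.82, 12.3 ± 5.53 and 15.0 ± 5.10 CPM. TME-CM against H-CM gave log2 fold changes of -0.11 (95% interval -0.61 to 0.40) at 24 h and 0.13 (95% interval -0.73 to 0.99) at 12 h. Groups overlapped at every time, and none of its comparisons passed.

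Irak3 (chr10:120141648-120202130, minus strand), the inhibitor of the MyD88 branch, was higher in TME-CM than in H-CM at 12 h. TME-CM libraries held 19.2, 10.4, 18.9 and 22.4 CPM and H-CM libraries 2.69, 3.35, 0.228 and 6.14 CPM. Unstimulated libraries, at 9.67, 4.51, 8.74 and 4.52 CPM, lay below TME-CM and overlapped H-CM. The log2 fold change between TME-CM and H-CM was 2.48 (SE 0.55, edgeR adjusted p = 0.0187), or 5.57-fold. Against unstimulated cells it was 1.38 (95% interval 0.27 to 2.50, edgeR adjusted p = 0.22). The call was lost without TME-CM replicate 1 or 4 or H-CM replicate 2 (edgeR adjusted p = 0.0595, 0.0835 and 0.0618), and in the fit to TME-CM and H-CM alone (0.0528).

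At 24 h, Irak3 stood at 8.80, 19.9, 7.94 and 5.87 CPM in TME-CM and at 9.97, 3.40, 2.84 and 1.49 CPM in H-CM. Replicate 1 of H-CM was above 3 of the 4 TME-CM libraries, and the difference did not pass (log2 fold change 1.15, 95% interval 0.07 to 2.23, edgeR adjusted p = 0.271). Without that library it did (1.88, edgeR adjusted p = 0.0288). The change of the TME-CM versus H-CM effect from 12 to 24 h was -1.28 (95% interval -2.86 to 0.29), so the effects at the 2 times were not shown to differ.

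**Figure D2:**
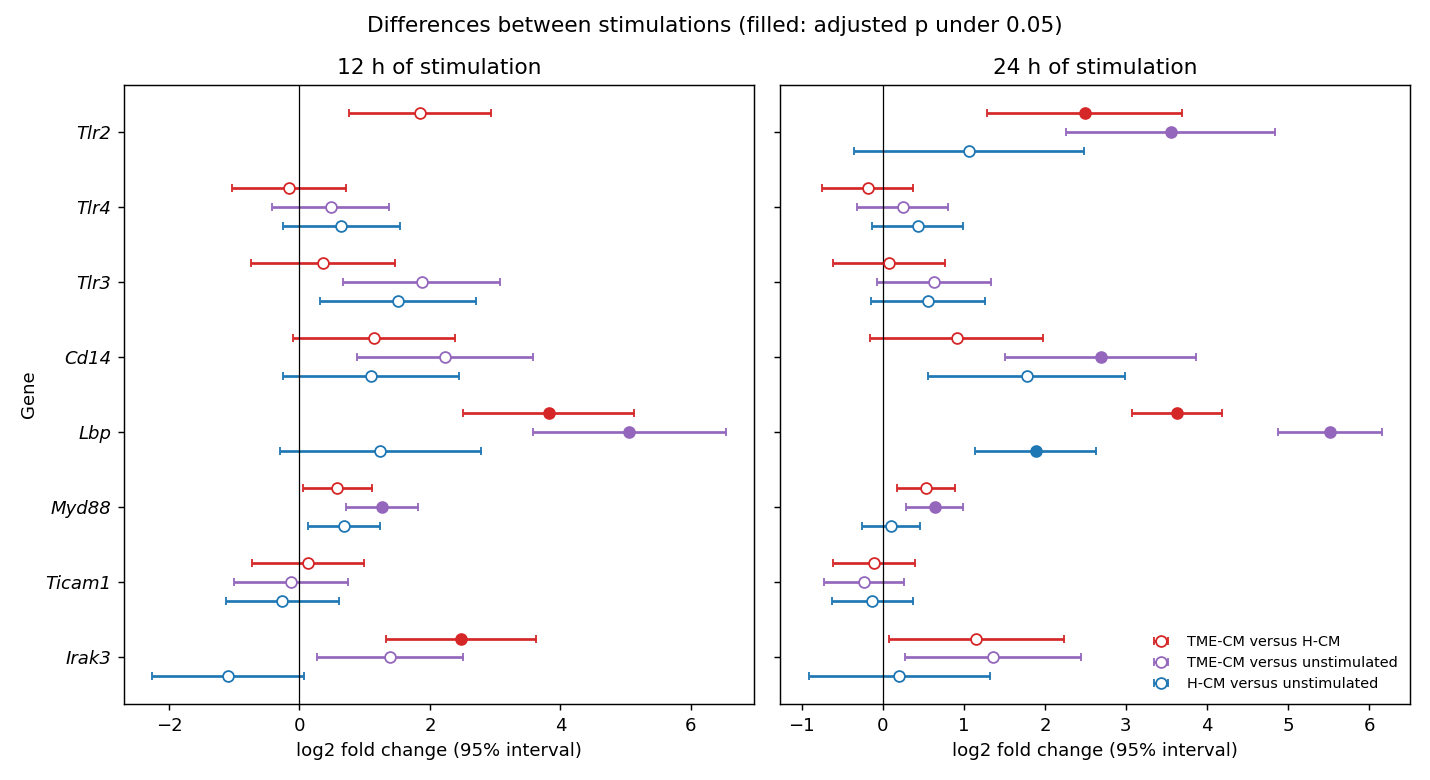
Log2 fold change of 8 genes with its 95% interval from edgeR, at 12 h (left) and 24 h (right), for TME-CM versus H-CM (red), TME-CM versus unstimulated (purple) and H-CM versus unstimulated (blue). Filled points passed an adjusted p under 0.05, and Tlr2 against unstimulated cells at 12 h is not drawn because all unstimulated libraries were at 0. Lbp lies farthest from 0, at 3.82 and 3.63 for TME-CM versus H-CM, and the intervals of Tlr4 and Ticam1 include 0 throughout.

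By comparison, 2 of the 8 genes tested were called between TME-CM and H-CM at 12 h (Lbp and Irak3), where 1.89% of 12156 genes tested were called. DESeq2 called 3 of the 8 in that comparison. At 24 h, 2 of 8 were called (Lbp and Tlr2), against 5.40% of 12713 genes. For TME-CM against unstimulated cells, the count was 3 of 8 at 12 h (Tlr2, Lbp and Myd88), against 4.41% of all genes. It was 4 of 8 at 24 h (those 3 and Cd14), against 9.52%. For H-CM against unstimulated cells, Tlr2 was called at 12 h and Lbp at 24 h, where 0.403% and 2.03% of genes were called. Neither call stood when those groups were fitted without the TME-CM libraries, where Tlr2 did not pass the filter. All calls were higher in the stimulated or tumor-medium group. Both comparisons against unstimulated cells share the same control libraries. The median log2 fold change of the 8 genes between TME-CM and H-CM was 0.86 at 12 h and 0.73 at 24 h, beside -0.0011 and 0.0049 over all genes tested. The genes were chosen with earlier results of these data known. Tlr2 and Lbp passed the filter at 12 h through the TME-CM libraries, where they were highest. These counts and medians therefore describe the genes and are no test of them as a set.

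At 6 h, 5 of the 10 genes passed the filter (Tlr2, Tlr4, Myd88, Ticam1 and Irak3) and 0 were called by edgeR or DESeq2 in any comparison, with no DESeq2 adjusted p for 4 of them between TME-CM and H-CM. At an unadjusted p under 0.05 there was 1 of the 5, Tlr2, between TME-CM and H-CM, 1 between TME-CM and unstimulated cells, also Tlr2, and 0 between H-CM and unstimulated cells, beside 6.07%, 6.19% and 0.627% of all genes tested. Over all 9256 genes tested, 0.0972%, 0.454% and 0% were called in these comparisons.

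Levels at 24 and 12 h were compared within each stimulation in a model of those 24 libraries. None of the 8 genes tested was called by edgeR or DESeq2 in unstimulated cells, H-CM or TME-CM, where 0.0153%, 0.00763% and 0.626% of 13105 genes were called. DESeq2 gave no adjusted p for 4, 1 and 0 of them. At an unadjusted p under 0.05 there were 1, 1 and 0 of the 8, both of them Tlr2, beside 5.30%, 6.23% and 7.89% of all genes tested. In TME-CM, Tlr2 was lower in every library at 24 h than in any at 12 h (log2 fold change -0.76, 95% interval -1.87 to 0.34). For the change of the TME-CM versus H-CM effect between the times, 0 of 8 were called by either tool and 0 at an unadjusted p under 0.05, with 0% of all genes called by edgeR and 436 genes at an unadjusted p under 0.05.

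The order of levels in the group means differed with the medium. In unstimulated cells at 24 h, Myd88 led with 20.7 ± 2.78 CPM (SD, n = 4), above every library of Ticam1 (11.3 ± 1.41 CPM). Tlr4 followed at 7.59 ± 2.36 CPM, overlapping Ticam1. Irak3 and Tlr3 came next at 4.15 ± 2.66 and 3.98 ± 0.537 CPM, then Tlr2, Lbp and Cd14 between 0.908 and 1.02 CPM. Irak3 overlapped Tlr4 and Tlr3, and Tlr2, Lbp and Cd14 overlapped one another, but no library of these 3 reached any of Irak3 or Tlr3. In TME-CM at 24 h, Lbp led with 45.9 ± 5.92 CPM, then Myd88 with 32.4 ± 4.04, and no library of Lbp overlapped Myd88 or of Myd88 the next gene. Tlr2 came after them at 11.7 ± 2.30 CPM, overlapping Irak3 (10.6 ± 6.33 CPM), and the others down to Cd14 (6.06 ± 1.94 CPM) overlapped their neighbours. The 3′ counts need no division by length, but how well each mRNA end is captured can differ between genes.

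Other genes of the pathway were read from lists of 62 further genes by role. Of 7 other Toll-like receptors (Tlr5, Tlr7, Tlr8, Tlr9, Tlr11, Tlr12 and Tlr13), none passed the filter at 12 or 24 h. Tlr13 had the most counts, 78 over 18 libraries, and Tlr9 and Tlr11 had 0. Of 9 other accessory proteins and chaperones, 7 were tested and 0 called between TME-CM and H-CM at either time by edgeR or DESeq2, with 0 at an unadjusted p under 0.05. The list of other adaptors had 1 of 4 tested at 12 h and 2 of 4 at 24 h, with 0 called by edgeR or DESeq2 (1 without a DESeq2 adjusted p) and 0 at an unadjusted p under 0.05. Over all genes tested, edgeR called 1.89% and 5.40% at 12 and 24 h, and 10.6% and 16.0% had an unadjusted p under 0.05.

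The other lists held a few genes called between TME-CM and H-CM, which are given beside the 1.89% of all genes called at 12 h and the 5.40% at 24 h. Of 24 kinases, ubiquitin ligases and transcription factors, 0 were called at 12 h by edgeR or DESeq2. At an unadjusted p under 0.05 there were 4 of the 24, beside 10.6% of all genes tested. At 24 h 1 of the 24 was called, Map3k8, a kinase that activates the ERK pathway after Toll-like receptor signals (log2 fold change 1.54, SE 0.40, edgeR adjusted p = 0.0251). Of 9 inhibitors tested, 2 were higher at both times. Nfkbia encodes the inhibitor that holds NF-kB in the cytoplasm and rose by 0.77 at 12 h and 1.01 at 24 h (edgeR adjusted p = 0.0353 and 1.24e-05). Tnip1, which encodes an A20-binding inhibitor, rose by 1.02 and 0.85 (edgeR adjusted p = 0.0189 and 0.000881).

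Among 7 endogenous ligands tested, Saa3 was higher at 12 h (log2 fold change 4.98, edgeR adjusted p = 0.00675), and DESeq2 called 0 of the list there, with 1 adjusted p not given. At 24 h, 3 were higher. They were Saa3, a serum amyloid A (4.67, edgeR adjusted p = 0.00337), S100a8, a calcium-binding alarmin (3.33, edgeR adjusted p = 4.89e-06), and Vcan, the matrix proteoglycan versican (1.23, edgeR adjusted p = 0.0362). Saa3 averaged 15152 CPM in TME-CM and 594 CPM in H-CM at that time. The other listed ligands tested did not pass against H-CM.

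**Figure D3:**
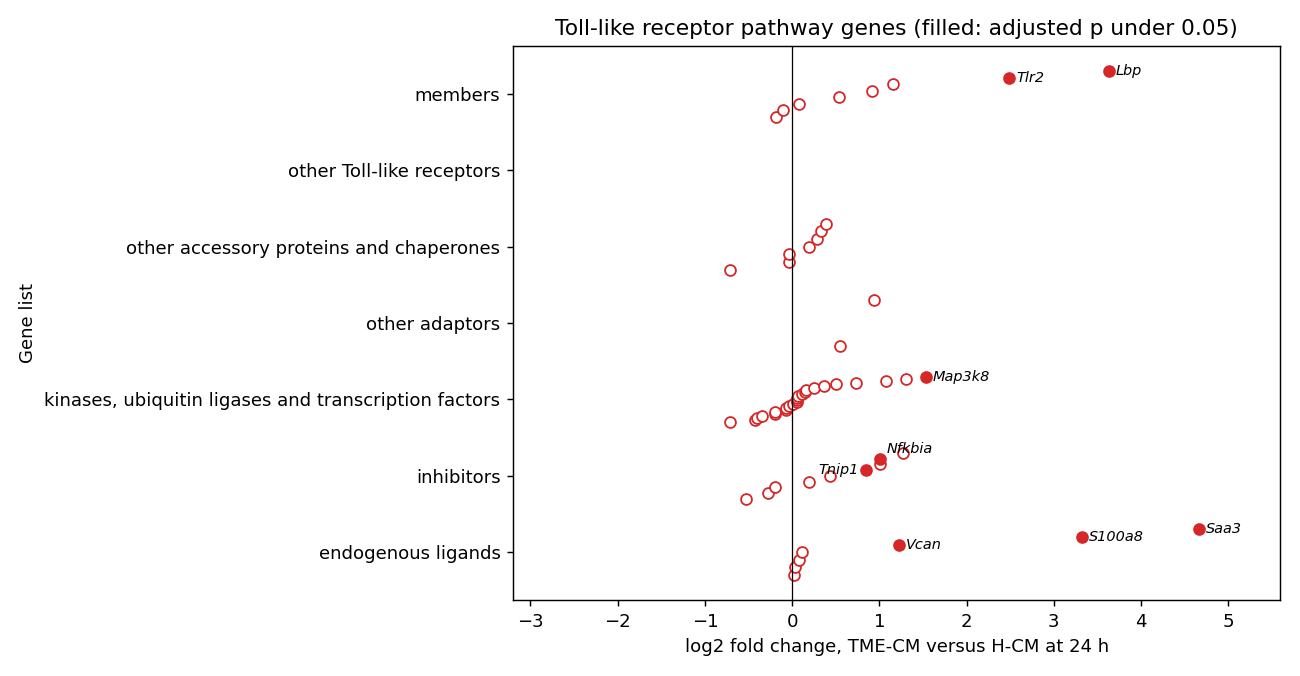
Log2 fold change between TME-CM and H-CM at 24 h for the genes tested of the 10 described here (top row) and of each list of further pathway genes, one point per gene. Filled points passed an adjusted p under 0.05 in edgeR and are named. No other Toll-like receptor was tested, the called genes all lie to the right of 0, and Saa3 lies farthest at 4.67.

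Genes with the most similar pattern were found by Pearson correlation of log2 CPM over the 24 libraries of 12 and 24 h among 10036 genes. These libraries share the groups, so a coefficient describes shared group differences as well as spread within groups. The nearest to Lbp was Saa3 (r = 0.965), then Hif1a (0.962) and Mmp3 (0.962). Tlr2 was nearest to the chemokine genes Cxcl1 (0.938) and Ccl7 (0.928), then Bnip3 (0.927). The nearest to Cd14 was Tnip1 (0.895), and for Myd88 Slco3a1 (0.869), Zc3h12a (0.860) and Nfkbia (0.855) led. For Tlr3, the interferon-induced Ifit3 (0.813) and Ifih1 (0.804) came first. Irak3 was closest to Sssca1 (0.844) and Il1rl1 (0.842). Tlr4 reached 0.782 at most, with Cd164, and Ticam1 0.811, with Rab22a.

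Macrophages express Tlr2, Cd14 and Irak3 strongly, so macrophage markers were read in the same libraries. In bulk RNA, fewer cells of a type and less RNA per cell cannot be told apart. Of 15 macrophage markers, 13 were tested at 12 and 24 h. Between TME-CM and H-CM, 0 were called by edgeR or DESeq2 and 0 reached an unadjusted p under 0.05 at either time. Over all genes tested, edgeR called 1.89% and 5.40% at 12 and 24 h, and 10.6% and 16.0% had an unadjusted p under 0.05. For TME-CM against unstimulated cells 0 were called at either time by either tool, with 1 and 0 at an unadjusted p under 0.05. The shares of all genes there were 4.41% and 9.52% called, and 12.3% and 19.2% at an unadjusted p under 0.05. Their summed level varied widely within groups. At 24 h it ranged from 64.0 to 253 CPM in unstimulated cells, from 80.2 to 370 in H-CM and from 80.0 to 397 in TME-CM. At 12 h the ranges were 68.4 to 340, 85.3 to 284 and 89.9 to 418 CPM. Levels differed between the 15 markers. Cx3cr1 and Aif1 averaged under 1 CPM in each group of these times, although 13 of the 15 passed the filter on low counts. Lyz2 and Itgam gave much of the sum.

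In each of the 6 groups of 12 and 24 h, replicates 1 and 2 had a larger macrophage sum than replicates 3 and 4. The TME-CM library with the lowest sum at 24 h, replicate 4, held 14.8 CPM of Tlr2 and 42.6 CPM of Lbp. The one with the highest sum, replicate 2, held 12.3 and 42.6 CPM. At 24 h, Irak3 was higher in replicates 1 and 2 than in 3 and 4 in every group, as the sum was. The unstimulated libraries of 24 h held 8.02, 3.36, 3.24 and 1.98 CPM of Irak3. At 12 h that split held for Irak3 in no group. Tlr2 and Cd14 showed it in H-CM at 24 h, but not in TME-CM or unstimulated cells, and in no group at 12 h. The library with the largest sum did not always hold the most Irak3. At 24 h the TME-CM library with the largest sum, replicate 2, had the group's highest Irak3, 19.9 CPM. In H-CM the library with the largest sum, replicate 2, held 3.40 CPM, below the 9.97 CPM of replicate 1. At 12 h the libraries with the largest sums, also replicate 2, had the lowest Irak3 of their group in TME-CM (10.4 CPM) and in unstimulated cells (4.51 CPM). The part of macrophages in the results for Tlr2, Lbp, Cd14 and Irak3 was not tested.

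**Figure D4:**
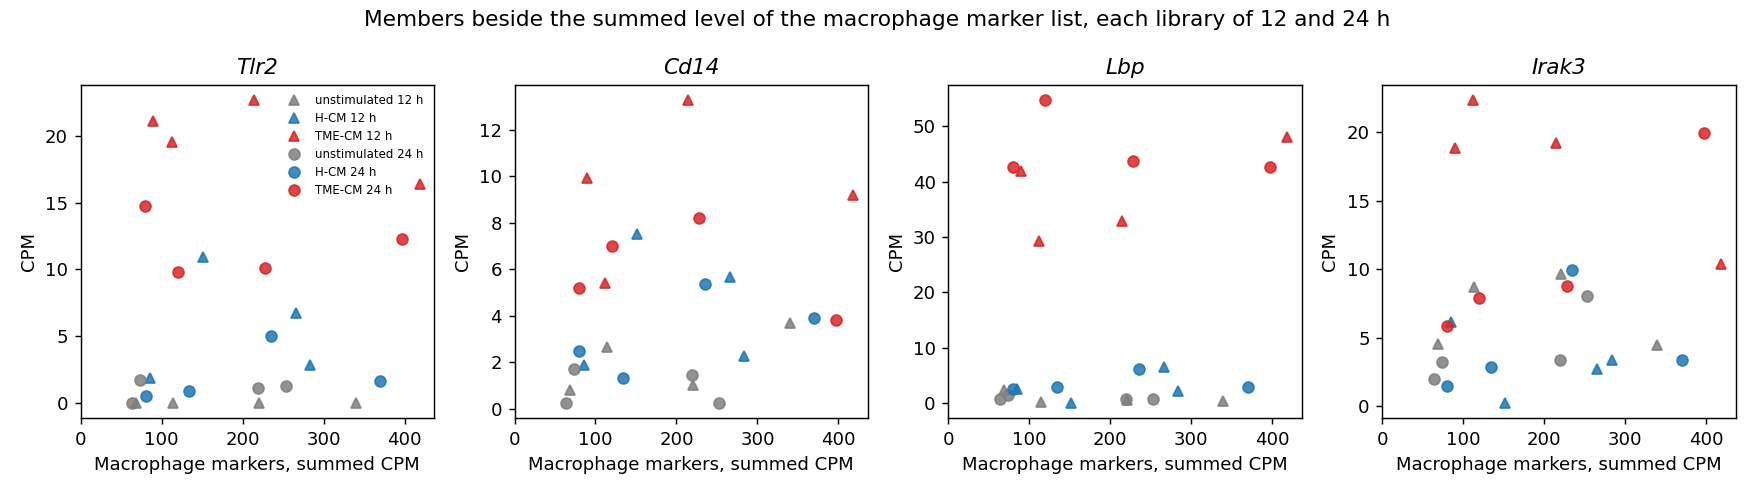
Level of 4 genes (CPM) against the summed level of 15 macrophage markers (CPM) in each library of 12 h (triangles) and 24 h (circles), coloured by medium as grey unstimulated, blue H-CM and red TME-CM. The TME-CM libraries stay above the others for Lbp across sums from 80.0 to 418 CPM, and Irak3 in TME-CM at 24 h is highest, at 19.9 CPM, in the library with the largest sum of that group, whereas at 12 h that library has the lowest Irak3 of its group, at 10.4 CPM.

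Markers of glia and of other cell types were read as well. Sox10, one of the listed enteric glia markers, averaged 63.8 CPM in unstimulated cells and 65.8 CPM in TME-CM at 24 h. The 10 glia markers summed to between 240 and 335 CPM in every library of 12 and 24 h. At 24 h their sum averaged 288 CPM in TME-CM and 267 CPM in unstimulated cells. In these groups the fibroblast list summed to means of 5485 and 5152 CPM, and the smooth muscle list to 1722 and 6466 CPM. The same lists averaged 3899 and 2971 CPM in H-CM at 24 h. The lists hold different genes, so these sums do not give shares of cells. Which cells held the Lbp and Tlr2 mRNA cannot be told from bulk RNA. Of 9 enteric glia markers tested, 0 were called between TME-CM and H-CM by edgeR at either time (1 and 2 at an unadjusted p under 0.05), and DESeq2 called 0 at 12 h and 1 at 24 h. In that comparison edgeR called 1.89% and 5.40% of all genes at 12 and 24 h, and 10.6% and 16.0% had an unadjusted p under 0.05. All 5 smooth muscle markers were tested, and 4 were lower in TME-CM than in H-CM at 24 h, among them Acta2 (log2 fold change -0.80, edgeR adjusted p = 0.000708). All 5 were also lower in H-CM than in unstimulated cells at 24 h, among them Acta2 (-1.12, edgeR adjusted p = 6.26e-05). Of 5 fibroblast markers, 3 were higher in TME-CM than in H-CM at 24 h, led by Dcn (1.21, edgeR adjusted p = 4.89e-06). The endothelial marker Kdr was lower in that comparison (-1.65, edgeR adjusted p = 0.00203). Of 6 neuron markers tested, 0 were called by either tool at 24 h (2 at an unadjusted p under 0.05), and of 5 epithelial markers the 1 that could be tested was not called. S100a8, also on the neutrophil list, was the only 1 of 6 neutrophil markers abundant enough to test. The part of these cells in the results for Lbp and Tlr2 was not tested.

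Some of the genes overlap others in the annotation (GENCODE M21). Myd88 shares 290 exonic bases with Acaa1a, Irak3 shares 192 with Tmbim4 and 28 with Gm47009, and Tlr3 shares 381 with Gm45542, all on the opposite strand. None of these bases lies within the last 500 exonic bases of the gene described, where 3′ counts arise. Acaa1a and Tmbim4 were not called between TME-CM and H-CM at 24 h (log2 fold change 0.20, SE 0.16, and 0.08, SE 0.15). Myd88 was called between TME-CM and unstimulated cells, where Acaa1a changed by 0.53 (SE 0.26) at 12 h and 0.11 (SE 0.15) at 24 h. Irak3 was called between TME-CM and H-CM at 12 h, where Tmbim4 changed by 0.06 (SE 0.24). Neither Acaa1a nor Tmbim4 was called in those comparisons. Whether the counting used strand is not given in the sources used here.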

How the data were processed

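Libraries were made from total RNA with a 3′ mRNA kit (QuantSeq) and sequenced on a HiSeq4000 by the authors. Per the methods and the submitters' processing notes, reads were checked with FastQC 0.11.7, trimmed, aligned to mm10 with HISAT2 and handled with SAMtools 1.5, multi-mapping reads were discarded, and HTSeq counted reads per gene. The deposited values are raw counts per gene for 36 libraries, not normalized. Which annotation was counted, whether strand was used and whether reads carried molecular identifiers are not given in the sources used here. Detection limits therefore cover counting error only. The intervals come from the edgeR fits, which also include the spread between the libraries.

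From these counts, genes were filtered per fit with filterByExpr (minimum count 10), scaled by TMM and tested with edgeR 4.0.16 (robust quasi-likelihood F test, R 4.3.3), with Benjamini-Hochberg adjustment over all genes tested and a threshold of 0.05. One model of 12 libraries was fitted at each time, and one of 24 libraries for comparisons of 24 with 12 h, which makes 13 comparisons. Levels are CPM on TMM factors of all 36 libraries. A group with 0 counts was set to 3 counts over the group for a lower bound. Groups came from the sample titles. The 10 genes, the further pathway genes and the marker lists were chosen with earlier results of these data known. From each list, up to 4 genes called between TME-CM and H-CM at 12 or 24 h with the largest change at 24 h are named. For each gene, up to 3 of the most correlated genes are named, from the highest coefficient down. These were sought on log2 CPM with prior count 2 among genes averaging 5 CPM or more. Marker genes named with other cell types, Irf7, Tnc, Nfkbia at 6 h and the genes of overlapping exons were picked after their values were seen. Alternatives were DESeq2 1.42.0 size factors and Wald test, no filter, only the groups compared, all 36 libraries in one model, a replicate block, Yam1 left out (a transcript with up to 48.6% of a library's counts), and each library left out. On simulated data with 4-fold changes, 26.9% of changed genes were recovered at 6 h, 75.6% at 12 h and 87.8% at 24 h for TME-CM versus H-CM (8251, 11795 and 12553 genes). Gene positions and exons came from GENCODE M21 (GRCm38, the same assembly as mm10), and promoters from RefSeq.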

Additional observations from a re-analysis of the deposited data

Results flagged for a closer look

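Within each group of 4 libraries, the highest or lowest library was compared with its nearest neighbour by Dixon's ratio, at its 95% critical value. Of 74 groups of libraries tested over the 10 genes, 10 held a library that stood apart. The critical value marks about 5% of groups by chance when values are normally distributed. Low counts with many zeros are not, so the 10 cannot be read as an excess.

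Lbp accounted for 5 of them. It stood apart with 36.8 CPM in H-CM replicate 4 at 6 h, which is 1 count in the smallest library. The others were 2.33 CPM in unstimulated replicate 4 at 12 h, 1.55 CPM in unstimulated replicate 3 at 24 h, 6.18 CPM in H-CM replicate 1 at 24 h and 54.8 CPM in TME-CM replicate 3 at 24 h.

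Tlr2 stood apart with 13.1 CPM in H-CM replicate 1 at 6 h, from 9 counts. Tlr4 reached 26.9 CPM in H-CM replicate 3 at 12 h, where the next library held 10.97 CPM. Myd88 was low, at 16.6 CPM, in unstimulated replicate 1 at 24 h. Tlr1, at 0.673 CPM in TME-CM replicate 3 at 24 h, and Tlr6, at 0.997 CPM in H-CM replicate 1 at 24 h, rest on 5 counts each.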

How the results depend on the processing

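Lbp between TME-CM and either other group, and Tlr2 between TME-CM and unstimulated cells, were called at 12 and 24 h under every one of the 7 alternatives and without any single library. No called value changed direction under any alternative, and 57 sign changes occurred among values that were not called. One model of all 36 libraries, whose shared spread includes the 6 h libraries, gave 1 gene called for TME-CM versus unstimulated at 6 h (Tlr2). It left 1 for TME-CM versus H-CM at 12 h and 1 at 24 h, 2 for TME-CM versus unstimulated at 24 h and 0 for H-CM versus unstimulated at 24 h. The calls it lost were Irak3 and Myd88 at 12 h and Tlr2, Cd14, Myd88 and Lbp (the last in H-CM) at 24 h. With only the groups compared, the counts were 1 for TME-CM versus H-CM and 5 for TME-CM versus unstimulated at 12 h, and 0 for H-CM versus unstimulated at both 12 and 24 h. At 12 h, Tlr2 did not pass the filter in the fit of H-CM and unstimulated libraries. DESeq2's Wald test called 5 for TME-CM versus unstimulated at 12 h. Without a filter, 1 gene (Tlr2) was called for 24 h versus 12 h in unstimulated cells. Leaving out each library gave 1 to 3 called for TME-CM versus H-CM at 12 h and at 24 h, and 3 to 5 for TME-CM versus unstimulated at 12 h. The causes were not tested.

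Replicate numbers are shared between groups, but the numbers were not taken to pair the libraries. The correlation of same-numbered libraries' deviations from their group means over all genes ran from -0.169 to 0.232 over comparisons, and no comparison had all 4 pairs above 0.1. With the replicate number as a block, TME-CM versus unstimulated at 24 h had 5 genes called in place of 4, Irak3 being added (log2 fold change 1.44, edgeR adjusted p = 0.0268), and the counts of the other comparisons did not move. In 24 h versus 12 h in H-CM every library correlated best with its own number, and the summed macrophage markers were larger in replicates 1 and 2 than in 3 and 4 in 6 of the 6 groups of 12 and 24 h, which are hints of pairing from the data.

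At 6 h, 2 alternatives were added after seeing the data, namely leaving out the 2 shallowest libraries and leaving out the 4 with the fewest genes detected. Both left 0 genes called. The common dispersion of the 6 h libraries, 0.572, exceeded those of 12 h (0.122) and 24 h (0.0455). Tlr1 and Tlr6 had too few counts to test at any time.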

Other observations

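Irf7, a transcription factor that acts below the endosomal Toll-like receptors and in interferon signalling, was higher in TME-CM than in unstimulated cells at 12 h (log2 fold change 3.88, SE 0.67, edgeR adjusted p = 0.00138) and at 24 h (3.71, SE 0.39, edgeR adjusted p = 1.14e-06). It was also higher in H-CM than in unstimulated cells at 24 h (2.63, SE 0.39, edgeR adjusted p = 0.000799). Nfkbia was the one gene of the pathway lists called at 6 h, with a mean of 826 CPM in TME-CM and 162 CPM in unstimulated cells (2.33, SE 0.38, edgeR adjusted p = 0.00105). Tnc, the matrix protein tenascin-C and a listed ligand of TLR4, was the listed ligand that moved down, by -0.61 in TME-CM and -0.69 in H-CM against unstimulated cells at 24 h (edgeR adjusted p = 0.00258 and 0.00485).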
